A study of Rattus norvegicus with 9 samples.

Results

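Rat neutrophil defensins are the 4 genes RatNP-3b, Np4, Defa11 and Defa5, taken by symbol from 41801 listed genes, of which 29201 had at least 1 UMI (a unique molecular identifier, which marks 1 captured RNA molecule) in the cells kept. All 4 were measured. They were described over the stages of the granulocyte lineage, over the other cell types and over 8 libraries. The genes were chosen because earlier results of these data showed them high in granulocyte precursors, so their levels by stage are a description and carry no test.

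Cells came from the tissue of a 3 mm circular osteotomy of the proximal tibia of Sprague-Dawley rats of 6 to 8 weeks, which all also carried a 4 mm full-thickness wound of the skin on the hind foot. TO rats had the osteotomy alone. TOE rats also received radial extracorporeal shock waves (rESWT) at the osteotomy. Sessions were on days 2 and 4, so the TOE_2d libraries were collected after the first session alone, and the pairs of TOE and TO at 2d and 4d differ in the number of sessions as well as in the day. Libraries were made with the 10x Genomics Chromium 3' chemistry, 1 per condition: TO_2d_0h, TO_2d_4h, TO_4d_4h, TO_4d_24h, TOE_2d_4h, TOE_2d_24h, TOE_4d_4h and TOE_4d_24h, where the first number is the day of the session after injury and the second the hours from then to collection, with matching times in TO rats. How many rats went into a library is not given in the sources used here. TO_2d_24h was not analysed here. With 1 library per condition no difference between conditions was tested, and no test was run that takes libraries of different days or hours as replicates; every interval below is an exact 95% interval for counting error only.

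Alpha-defensins are small cationic peptides that damage microbial membranes. In neutrophils they are made as precursors during the promyelocyte stage in the bone marrow, processed, and stored in primary (azurophil) granules together with myeloperoxidase and the serine proteases elastase, proteinase 3 and cathepsin G. Secondary granule proteins such as cathelicidin (Camp) and neutrophilic granule protein (Ngp) are made later, and mature neutrophils carry the stored peptides after the transcripts have gone. Rat neutrophils hold several such peptides, whereas mouse neutrophils lack them.

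In the RefSeq gene table (GRCr8) all 14 listed alpha-defensin genes and pseudogenes lay on chromosome 16 with no other gene between the first and the last, Defa5 at one end and Np4, Defa10, Defa11 and RatNP-3b as the last genes at the other. Since all 4 members were highest in the same stage, although they differed between libraries, the 150 bases before the annotated start are shown for the members that have an entry in the RefSeq promoter table, and for Defa9, a family member with 1 UMI in all cells, as a contrast. Each is written 5′ to 3′ on the strand of the gene, with matches to the letters TTGCNNAA (C/EBP type), ACCACA (RUNX type), CCAAT and GGAAGT (ETS type), searched on both strands, in capitals.
RatNP-3b, chr16:77248978-77249127, minus strand: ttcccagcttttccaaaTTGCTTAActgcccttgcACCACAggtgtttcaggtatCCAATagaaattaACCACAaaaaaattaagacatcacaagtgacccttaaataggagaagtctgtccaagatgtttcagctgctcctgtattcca
Np4, chr16:77199643-77199792, minus strand: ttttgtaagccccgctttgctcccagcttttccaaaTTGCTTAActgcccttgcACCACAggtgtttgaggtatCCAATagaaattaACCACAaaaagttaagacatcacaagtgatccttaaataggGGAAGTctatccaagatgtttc
Defa11, chr16:77238042-77238191, minus strand: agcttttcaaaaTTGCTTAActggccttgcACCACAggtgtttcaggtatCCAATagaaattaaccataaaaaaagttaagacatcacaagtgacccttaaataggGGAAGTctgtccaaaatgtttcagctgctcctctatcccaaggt
Defa9, chr16:77184118-77184267, plus strand: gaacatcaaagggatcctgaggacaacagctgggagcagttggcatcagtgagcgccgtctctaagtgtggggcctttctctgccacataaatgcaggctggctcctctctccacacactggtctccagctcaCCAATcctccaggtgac

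The 3 member sequences shared the order of a C/EBP-type, a RUNX-type and a CCAAT match. RatNP-3b and Np4 had a second RUNX-type match, and Np4 and Defa11 an ETS-type match. Defa9 had a CCAAT match, and ETS-type letters only across its start, outside the bases shown. RatNP-3b and Defa11 were identical at 89.0% of 155 aligned columns, RatNP-3b and Np4 at 74.6% of 169, and RatNP-3b and Defa9 at 46.7% of 165. The search covered 300 bases of each promoter, and of 33469 promoters of that length 10.6% held the C/EBP-type, 17.3% the RUNX-type, 37.5% the CCAAT and 22.6% the ETS-type letters. The motifs were chosen with the sequences in view, and a match is a description of letters only. Defa5 is named only. The RefSeq table gives ratNP-1 and ratNP-2 as other names of Defa5 and NP-3a and NP-3b as other names of RatNP-3b, so reads of near-identical copies may have been split or pooled by the counting, and the levels of single members are uncertain to that extent.

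The libraries held 95954800 to 144146202 UMIs, and 11934 to 16224 cells were kept in each, 110485 in all. Of these, 57.0% were B-cell-like, 10.5% monocyte-like and 1.26% mesenchymal-like, the last with 12 of 12 markers raised. A cluster of 4665 cells with a median of 795 UMIs stayed unnamed. TO_2d_4h supplied 95.5% of an erythroid-like cluster (2082 cells, median 1874 UMIs), which is given apart. Pairs of libraries shared 40 to 110 barcodes.

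The granulocyte lineage (1284 early precursors and 15227 neutrophil-like cells) was clustered again without any alpha-defensin gene and put into stages by marker sums of other genes. The primary granule stage (1209 cells) had high Mpo, Elane, Prtn3 and Ctsg. The secondary granule stage had a high sum of Camp and Ngp, which rested mainly on Camp in the dividing part, and was split by cell cycle genes into a dividing part (2441 cells) and a part that was not dividing (5302 cells). The mature stage held 6411 cells, and 395 cells with high chemokine genes, 306 of them from TO_2d_0h, were kept apart. A further sub-cluster of 753 cells had a high mean doublet score (0.142) and is called mixed. The stages, not the sub-clusters, were compared.

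Of the 4 defensins, 3 were among the most abundant transcripts of the tissue, and Defa11 was not. Together they gave 11941865 of 956343537 UMIs, or 1.25%. RatNP-3b ranked 8th of all genes by UMIs, Np4 19th, Defa5 21st and Defa11 1000th. RatNP-3b gave 47.0% of the UMIs of all alpha-defensin genes, Np4 26.2%, Defa5 25.3% and Defa11 1.34%. UMIs were counted at the 3' end of transcripts, so levels, given as CPM (UMIs of a gene over all UMIs of the same cells, where 1% is 10000 CPM), were not divided by transcript length.

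All 4 members were highest in the dividing secondary granule stage, whose name rests mainly on Camp. Its sub-clusters had Ngp at 275 to 2764 CPM and Mmp8 at 30.6 to 86.0 CPM. Those of the part not dividing had Ngp at 17151 to 31266 CPM and Mmp8 at 2871 to 3576 CPM. The sub-cluster richest in alpha-defensins, at 31.6% of its UMIs, had Ngp at 275 CPM and Mpo at 745 CPM. Together the 4 members gave 6.02% of the UMIs of the primary granule stage and 20.9% in the dividing secondary granule stage. They gave 0.721% in the part that was not dividing and 0.0895% in the mature stage. The chemokine cells were at 0.165%, above the mature stage. The dividing stage was the highest in each of the 8 libraries for each member, followed in each by the primary granule stage, the part not dividing and the mature stage. Of the UMIs of the 4 genes, 64.3% came from the dividing secondary granule stage, 17.7% from the primary granule stage, 2.51% from secondary granule cells that were not dividing and 6.95% from the mixed cells. A level highest in the dividing stage was seen for 1020 of 10064 genes with at least 500 UMIs in the lineage (10.1%), and a level at least 10 times that of the part not dividing for 199 of them (1.98%). All 4 members met both, which is read with the fact that they were chosen for this pattern. The sum of the 4 was 28.9 times higher in the dividing stage than in the part not dividing, and fell below 10 times in 3 of 12 alternatives: 4.12 with sub-clusters at resolution 2, 6.22 with doublets kept and 9.53 with the mixed cells put into a stage.

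**Figure D1:**
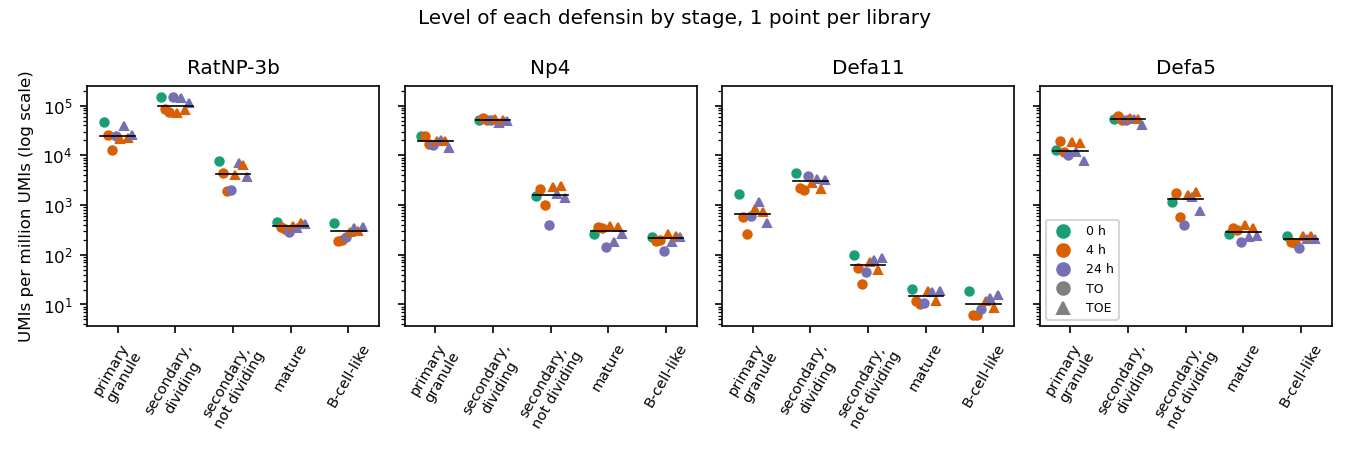
Level of each defensin in CPM (log axis) in 4 granulocyte stages and in B-cell-like cells. Each point is 1 library, coloured by hour, circles TO and triangles TOE, and the bar is the median of 8 libraries. Every member peaked in the dividing secondary granule stage, and its mature-stage level lay close to that of B-cell-like cells.

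RatNP-3b, the precursor of neutrophil antibiotic peptide NP-3, was the most abundant. In the dividing secondary granule stage it was at 149165 CPM in TO_2d_0h, 87111 in TO_2d_4h, 73233 in TO_4d_4h, 145982 in TO_4d_24h, 70584 in TOE_2d_4h, 141585 in TOE_2d_24h, 80038 in TOE_4d_4h and 112837 in TOE_4d_24h. The 4 libraries collected at 4 h were thus all below the 4 collected at 0 h or 24 h. In the primary granule stage RatNP-3b ranged from 12661 CPM in TO_4d_4h to 46379 CPM in TO_2d_0h, with a median of 24870 CPM. Its level over all libraries was 4.00 times higher in the dividing stage than in the primary granule stage, and 3.22 to 5.95 times within single libraries. It was 23.5 times higher in the dividing stage than in the part not dividing, which was still 11.8 times above the mature stage.

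Np4, the precursor of peptide NP-4, was the member with the most even level across libraries in the dividing and the primary granule stage, where its highest library was 1.27 and 1.76 times its lowest. It was the least even in the part not dividing (403 to 2389 CPM, 5.93-fold, against 3.79 to 4.46-fold for the others) and in the mature stage (2.55-fold against 1.58 to 2.23-fold). In the dividing stage it ranged from 44239 CPM in TOE_2d_24h to 56260 CPM in TO_2d_4h, with a median of 51096 CPM. In the primary granule stage it stood at 19368 CPM (19322 to 19414) over all libraries, so the dividing stage was 2.64 times higher, the smallest step of the 4 members. Of all Np4 UMIs, 21.8% lay in the primary granule stage, against 15.9% of those of RatNP-3b.

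Defa5, listed with the NP-1 and NP-2 peptides as other names, was at 52922 CPM in the dividing stage and 14659 CPM in the primary granule stage. Its dividing-stage level ranged from 40809 CPM in TOE_4d_24h to 60299 CPM in TO_2d_4h. It fell 44.9-fold from the dividing stage to the part not dividing, more than Np4 (31.0-fold) and RatNP-3b (23.5-fold).

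Defa11 followed the same stages at a far lower level. It was at 2830 CPM in the dividing stage, with libraries from 2050 to 4414 CPM, and at 756 CPM in the primary granule stage. Its 59.3 CPM in the part not dividing was 47.8-fold below the dividing stage.

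The level of the part not dividing depended on how the cells were clustered and put into stages. It ranged from 0.483% to 4.79% of UMIs over the alternatives tried, against 18.3% to 26.4% in the dividing stage. A sub-cluster of the secondary granule stage was called dividing if its summed cell cycle genes passed 1000 CPM. In the setting that gave 4.79%, sub-clusters at resolution 2, a sub-cluster of 411 cells lay just under this cut, at 984 CPM. It drew 25.8% of its UMIs from alpha-defensins and was counted as not dividing. No other cut was tried, so the part of this cut in the range was not tested. Clusters of all cells without the second clustering, which kept both parts of the secondary granule stage together, put the 4 members at 6.44% of UMIs in the primary granule stage and 12.5% in the secondary granule stage.

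Single cells of the early stages were split into cells with few and cells with very many defensin UMIs. In the primary granule stage the median cell had 0.365% of its UMIs from the 4 genes, the 25th percentile was 0.0824% and the 75th was 13.2%. In the dividing stage the median was 18.0% and the 95th percentile 41.7%. In the part not dividing the median was 0.0986%, with 6.73% of cells over 1%. Over all 110485 cells, 2280 (2.06%) drew more than 10% of their UMIs from the 4 genes, and these cells held 87.6% of all UMIs of the 4 genes. Of them, 66.8% were in the dividing stage, 15.3% in the primary granule stage, 3.46% in the part not dividing and 7.19% in the mixed cells. The highest count of 1 gene in 1 cell was 11810 UMIs, for RatNP-3b.

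**Figure D2:**
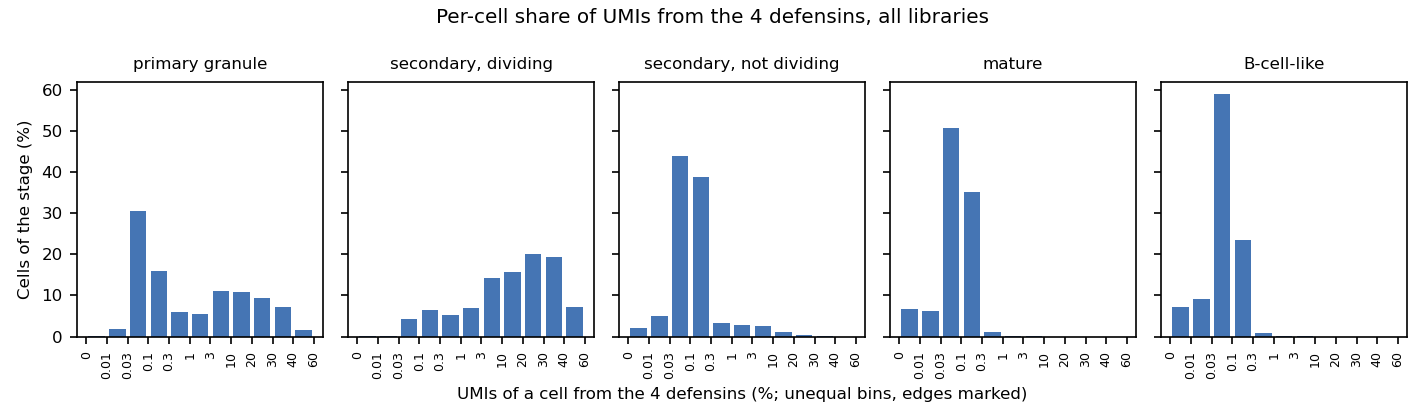
Share of a cell's UMIs from the 4 defensins (x axis, unequal bins with edges marked, percent) against the percent of cells of the stage (y axis), over all libraries. Primary granule cells have 1 peak below 0.3% and another above 3%, dividing secondary granule cells lie mostly above 3%, and mature cells spread over the same low bins as B-cell-like cells.

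Within the early cells of a library the shares of the members went together, least closely for Defa11 in the part not dividing. Defa11 was found in 13.6% of the cells of that part, with a mean of 0.465 UMIs per cell. The part of these low counts in its lower values was not tested. In dividing cells with at least 20 defensin UMIs (167 to 359 cells in a library), Spearman's rho of the share of UMIs between RatNP-3b and Np4 was 0.79 to 0.91 over the 8 libraries, between Np4 and Defa5 0.85 to 0.97, and between RatNP-3b and Defa11 0.68 to 0.80. In the part not dividing, 31 to 157 cells a library had at least 20 defensin UMIs. In these cells rho was 0.68 to 0.90 between RatNP-3b and Np4, but 0.22 to 0.75 between RatNP-3b and Defa11. These cells share a library and a depth per cell, so the values describe the cells and carry no test. Among cells with at least 20 defensin UMIs, RatNP-3b led in 63.3% to 97.8% of the dividing cells and in 66.7% to 95.2% of those not dividing. In the primary granule stage, with 64 to 230 such cells a library, the leading member differed by hour. RatNP-3b led there in 48.7% to 58.8% of cells at 0 h and 24 h, against 39.3% to 43.3% led by Np4. At 4 h Np4 led in 48.8% to 65.3% and RatNP-3b in 21.1% to 41.6%. No share over all genes was computed beside this split by hour.

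To place the members along granule gene levels without sub-clusters, the 8952 cells of the primary and secondary granule stages were ordered by the ratio of Camp and Ngp UMIs to those of 6 primary granule genes and cut into 10 bins of equal size. No defensin entered the order, but Elane, Camp and Ngp did, so the course of these genes along the bins was set by it. The 4 defensins gave 4.55% of UMIs in bin 1, 20.1% in bin 2, 24.3% in bin 3, 18.6% in bin 4, 11.6% in bin 5 and 0.420% in bin 10. By this share they stood highest in bin 3. Elane, the elastase gene, had dropped from 9972 CPM in bin 1 to 67.5 CPM there. Camp had reached 8544 CPM of its 31831 CPM in bin 10. Ngp was still at 591 CPM in bin 3, against 38730 CPM in bin 10. The bins mixed the stages. Bin 3 held 47.4% dividing cells and 52.5% cells of the part not dividing, and 41.8% of its cells had over 10% defensin UMIs. That share of cells was highest in bin 2, at 58.1%. Elane was at 1472 CPM there, Mpo at 1595 CPM and Camp at 1725 CPM. Bin 10 still held 10.3% dividing cells. A bin is thus not 1 step of maturation. The peak of each member lay in bin 2 or bin 3 in every library, and that of the sum in bin 3 in all libraries but TO_2d_4h, where it was in bin 2. Bin 1 held Np4 at 15979 CPM and RatNP-3b at 18893 CPM, a ratio of RatNP-3b to Np4 of 1.18. The ratio was 1.79 in bin 3, 2.34 in bin 5 and 3.04 in bin 8, its highest, and lower again in bin 9 (2.81) and bin 10 (2.34). The median depth was 28087 UMIs in bin 1, 5666 in bin 3 and 10582 in bin 10, and its part in the pattern was not tested.

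**Figure D3:**
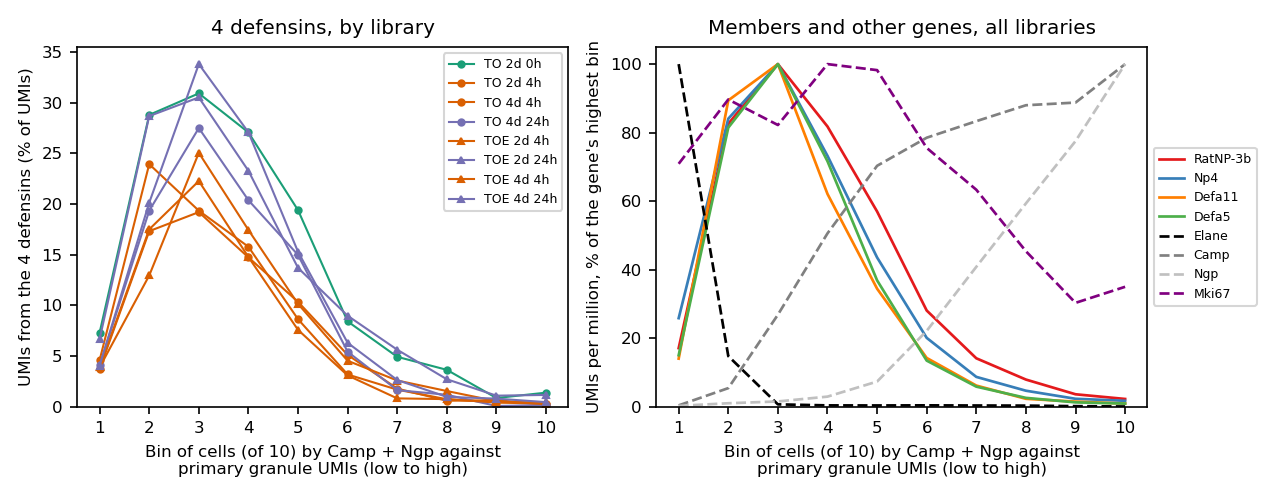
Left, percent of UMIs from the 4 defensins in 10 equal bins of cells ordered by Camp and Ngp against primary granule UMIs, 1 line per library, coloured by hour. Right, CPM of each member and of Elane, Camp, Ngp and Mki67 over all libraries, as a percent of the gene's highest bin. The members peak together in bin 3, between the bins highest in Elane and those highest in Camp and Ngp. These granule genes set the order of the cells.

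The mix of the members differed between the stages. RatNP-3b made up 42.2% of the UMIs of the 4 genes in the primary granule stage, 48.8% in the dividing stage and 59.97% in the part not dividing. Np4 made up 32.2%, 24.5% and 22.9% and Defa5 24.4%, 25.4% and 16.4% in the same stages. There were 1.31 (1.31 to 1.32) RatNP-3b UMIs per Np4 UMI in the primary granule stage, 1.99 in the dividing stage and 2.62 (2.60 to 2.65) in the part not dividing. In each library the ratio was lowest in the primary granule stage of these 3 stages and highest in the part not dividing.

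The same ratio also separated libraries by hour, a split noticed in the data. In the dividing stage it was 1.32 to 1.56 in the 4 libraries of 4 h and 2.28 to 3.2 in the 4 libraries of 0 h or 24 h. In the primary granule stage it was 0.763 to 1.17 and 1.54 to 1.91, again without overlap. The split was not particular to these stages. In B-cell-like cells the ratio was 1.00 to 1.23 and 1.58 to 1.92, and in the mature stage 0.967 to 1.17 and 1.56 to 1.98. No share over all genes was computed for the primary granule stage, or over pairs of genes for such a ratio. RatNP-3b at 4 h had a median of 76635 CPM in the dividing stage and at 0 h or 24 h of 143783 CPM, a 1.77-fold difference of the means. Defa11 likewise did not overlap, at 2050 to 2824 CPM against 3153 to 4414 CPM, while Np4 (50739 to 56260 against 44239 to 51585 CPM) and Defa5 (51319 to 60299 against 40809 to 53823 CPM) did. Of 11707 genes with at least 50 UMIs in this stage, 25.8% did not overlap between these groups of libraries and 4.05% were lower at 4 h without overlap. The split of RatNP-3b and Defa11 is one of many, and the hour cannot be told apart from any difference in handling between these libraries.

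**Figure D4:**
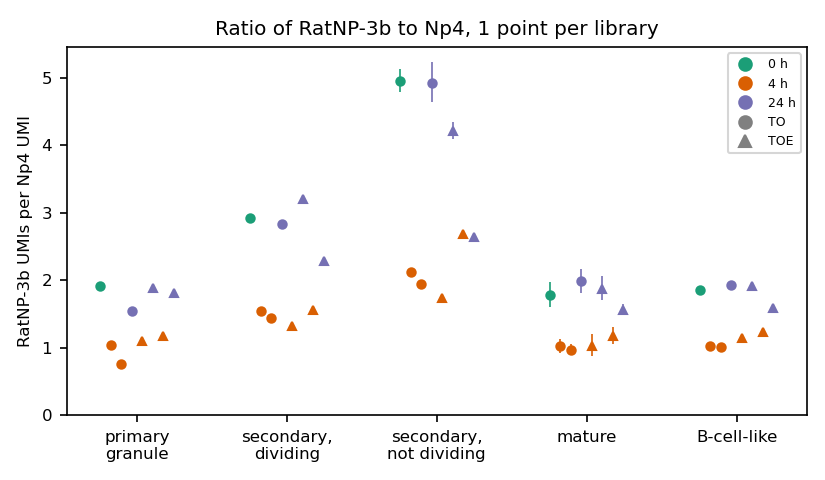
RatNP-3b UMIs per Np4 UMI in 4 granulocyte stages and in B-cell-like cells. Each point is 1 library, coloured by hour, circles TO and triangles TOE, with a 95% counting interval. The 4 h libraries lie below the others in every class shown but the secondary granule cells not dividing, where the ranges meet (1.74 to 2.68 and 2.63 to 4.95).

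Outside the early granulocytes the members were found in every cell type, and their sum reached at most 0.426% of UMIs in a named class over all libraries, apart from the erythroid-like cluster of mostly 1 library. In B-cell-like cells RatNP-3b was at 297 CPM, Np4 at 207 CPM, Defa5 at 205 CPM and Defa11 at 11.4 CPM. By CPM the mature stage was 1.24-fold above the B-cell-like cells for the sum of the 4, and 1.04 to 1.92-fold in single libraries. In UMIs of the 4 genes per cell it was below them, at 3.72 against 4.60. Median depths were 3851 UMIs in the mature stage and 4368 UMIs in B-cell-like cells, and the part of depth was not tested. The ratio of RatNP-3b to Np4 in the mature stage followed the library in the same way as in B-cell-like cells, at 1.78 and 1.85 in TO_2d_0h and at 1.02 and 1.02 in TO_2d_4h. In the same libraries the ratio was 1.91 and 1.04 in the primary granule stage, close to those of the mature stage, and 4.95 and 2.12 in secondary granule cells that were not dividing. The primary granule and mature stages were further apart in TO_4d_4h (0.763 and 0.967), TO_4d_24h (1.54 and 1.98) and TOE_4d_24h (1.81 and 1.56). B-cell-like cells of these libraries were at 1.00, 1.92 and 1.58. In TOE_2d_4h, TOE_2d_24h and TOE_4d_4h the primary granule and mature stages were again close. Whether the mature cells hold transcripts beyond free RNA was not tested.

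After each cell was thinned to 1000 UMIs, 91.9% of cells of the dividing stage (2433 cells, 8 shallower cells left out) had a RatNP-3b UMI. The share was 56.9% in the primary granule stage, 36.8% in the part not dividing, 29.7% in the mature stage and 25.8% (25.5% to 26.2%) in B-cell-like cells, where 1418 shallower cells were left out. Median depths before thinning were 14618 UMIs in the dividing stage and 4368 UMIs in B-cell-like cells. Without thinning 99.3% of dividing cells and 71.8% of B-cell-like cells had a RatNP-3b UMI. Defa11, at its lower level, was found in 61.2% of dividing and 1.17% of B-cell-like cells after thinning.

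In the other named classes the sum of the 4 genes over all libraries ranged from 794 CPM in erythroid-like cells to 4257 CPM in mast cell/basophil-like cells, but single libraries carried several of these values. Mast cell/basophil-like cells were at 25813 CPM in TO_2d_4h, with a median of 2959 CPM over the libraries, and at 2818 CPM without TO_2d_4h. Endothelial-like cells went from 1815 to 615 CPM without TOE_2d_24h, mesenchymal-like cells from 1279 to 715 CPM without the same library, and T/NK-cell-like cells from 1649 to 680 CPM without TO_4d_4h. By the median over libraries with at least 20 cells, endothelial-like (615 CPM), T/NK-cell-like (695 CPM), mesenchymal-like (713 CPM) and dendritic-cell-like cells (750 CPM) lay below the erythroid-like cells (863 CPM). The monocyte-like cells were at 1586 CPM and the macrophage-like cells at 1071 CPM. The median mast cell/basophil-like cell had 0.0708% of its UMIs from the 4 genes, against 0.0665% in the median B-cell-like cell, and 9 of its 815 cells had over 10%. The erythroid-like cluster held 1989 cells of TO_2d_4h, at 17341 CPM, and its median cell had 0.962%. With its few cells of other libraries it was at 20892 CPM (2.09% of UMIs), above the 0.721% of secondary granule cells not dividing. The unnamed cluster of low depth was at 11125 CPM (1.11%), also above that stage, with a median cell of 0.175% and 110 cells over 10%. In the unnamed cluster the ratio of RatNP-3b to Np4 was 2.42 and in the mixed cells 1.72.

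The comparison of TOE with TO asks whether shock waves changed the members within a stage. In the dividing secondary granule stage no member differed by 2-fold or more in any of the 3 matched pairs, called here the day 2 pair (2d 4h), the early day 4 pair (4d 4h) and the late day 4 pair (4d 24h). In the day 2 pair RatNP-3b was at 87111 CPM in TO and 70584 CPM in TOE, a ratio of 0.810 (0.807 to 0.814), and in the late day 4 pair at 145982 and 112837 CPM, a ratio of 0.773. In the late day 4 pair 99.5% of the dividing TOE cells lay in 1 sub-cluster, which held 36.6% of the dividing TO cells. In the early day 4 pair RatNP-3b went the other way, from 73233 to 80038 CPM, a ratio of 1.09. Np4 had ratios of 0.950, 1.01 and 0.960 in these pairs in turn, and Defa5 of 0.941, 1.06 and 0.792. Defa11 had ratios of 1.28, 1.00 and 0.841. As a background, 3.07% of 8982 genes in this stage differed by 2-fold or more in the day 2 pair, 3.38% of 9002 in the early day 4 pair and 8.25% of 7770 in the late day 4 pair.

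In the primary granule stage 1 member in 1 pair passed 2-fold: Defa11 in the early day 4 pair, with 265 CPM (933 UMIs in 108 cells) in TO and 722 CPM (3849 UMIs in 137 cells) in TOE, a ratio of 2.72 (2.53 to 2.93). In that pair RatNP-3b had a ratio of 1.79, Defa5 of 1.52 and Np4 of 1.17. In the day 2 pair RatNP-3b, Np4 and Defa5 had ratios of 0.841, 0.795 and 0.932 and Defa11 of 1.43. In the late day 4 pair the ratios were 1.03 for RatNP-3b, 0.874 for Np4, 0.709 for Defa11 and 0.776 for Defa5. The background of genes past 2-fold in this stage was 3.09% of 9928 genes in the day 2 pair, 2.97% of 9260 in the early day 4 pair and 8.08% of 8783 in the late day 4 pair. These ratios rest on 108 to 257 cells a library. Alternatives that kept the stage left the sum of the 4 members positive in the early day 4 pair. Some of them turned its direction in the day 2 or the late day 4 pair. Cells were also chosen one by one among all kept cells, by UMIs of at least 3 of 6 primary granule genes. The sum then had a log2 ratio of -0.65 in the day 2 pair, -0.25 in the early day 4 pair and 1.10 in the late day 4 pair. By stage these were -0.23, 0.56 and -0.11. Cells of other stages can pass this choice, and its mix of stages was not examined.

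In secondary granule cells that were not dividing, a comparison added after the values were seen, 3 members passed 2-fold in the early day 4 pair and 1 in the late day 4 pair. In the early day 4 pair RatNP-3b was at 1925 CPM in TO (944 cells) and 6411 CPM in TOE (661 cells), a ratio of 3.33 (3.27 to 3.39), with ratios of 3.06 for Defa5, 2.41 for Np4 and 1.89 for Defa11. The background there was 3.2% of 8822 genes. In the late day 4 pair Np4 had a ratio of 3.48, from 403 to 1401 CPM, and the others 1.86 to 1.92, beside 21.6% of 7823 genes past 2-fold. The late day 4 pair hardly shared a sub-cluster of this stage: 98.5% of its TOE cells lay in a sub-cluster that held 18.6% of its TO cells, and 76.2% of the TO cells in one that held 1.23% of the TOE cells. In the day 2 pair the 4 ratios were 0.901 to 1.35, beside 5.39% of 8177 genes. Few cells carried these levels: 5 of 944 cells in TO_4d_4h and 13 of 661 in TOE_4d_4h had over 10% of UMIs from the 4 genes, while the median cells had 0.102% and 0.125%. The direction in the early day 4 pair was kept by each member in 12 of 12 alternatives, but the 2-fold call was not: it was lost in 7 of 12 for RatNP-3b and Defa5 and in 8 of 12 for Np4. The lowest log2 ratios were 0.59 for RatNP-3b, 0.18 for Np4, 0.17 for Defa5 and 0.07 for Defa11. In the late day 4 pair the direction turned for each member in 2 to 6 of 12, and the 2-fold call of Np4 was lost in 7 of 12, with Np4 ranging from -1.24 to 1.80.

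**Figure D5:**
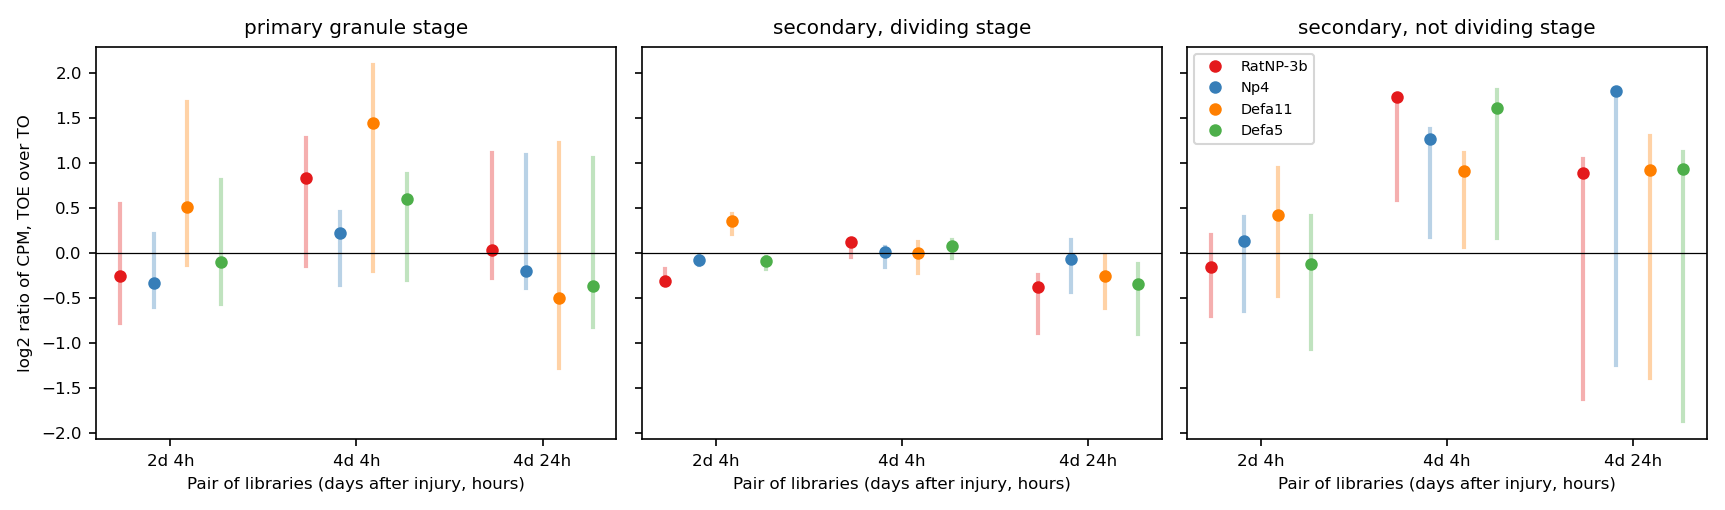
log2 ratio of CPM in TOE over TO for each member in 3 matched pairs of libraries, in the primary granule stage (left), the dividing secondary granule stage (middle) and secondary granule cells not dividing (right). Points are the values of the text and pale bars span all alternatives of filter, clustering and scaling. In the primary granule stage the bars include the cells chosen one by one from all kept cells. The bars cross 0 for every member and pair in the primary granule stage, stay within 1 log2 unit of 0 in the dividing stage, and lie above 0 for every member in the early day 4 pair in cells not dividing.

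Over all cells of a library the 4 members gave 0.826% of UMIs in TO_4d_24h, the lowest, and 1.56% in TO_2d_4h, the highest. In the late day 4 pair the level was 8263 CPM in TO and 14878 CPM in TOE, a ratio of 1.80 (1.80 to 1.81), and each of the 4 members had a ratio from 1.68 to 1.90. In the dividing stage of the same pair the sum of the 4 had a ratio of 0.816. That stage made up 1.35% of cells (1.17% to 1.56%) in TO_4d_24h and 3.18% (2.87% to 3.51%) in TOE_4d_24h. In the early day 4 pair the stage held 3.09% of cells in TO and 1.82% in TOE, and the ratio over all cells was 0.977. In the day 2 pair it held 2.30% and 2.27%, and the ratio over all cells was 0.869. A dividing cell held on average 3045 UMIs of the 4 genes in TO and 2738 in TOE in the late day 4 pair, where dividing cells were the larger share in TOE. In the early day 4 pair, where they were the smaller share in TOE, a dividing cell held 2635 and 3968. In the day 2 pair it held 3141 and 2664. These counts are not corrected for depth. Over all genes a dividing cell held 14858 UMIs in TO and 21144 in TOE in the early day 4 pair. In the late day 4 pair it held 12043 and 13271.5, and in the day 2 pair 15258 and 14515. The ratios per UMI in this stage are given above.

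In the mature stage the level at 4 h, at 996 to 1166 CPM for the sum, lay above that at 0 h or 24 h, at 621 to 992 CPM, but the nearest libraries did not differ beyond counting error: TO_4d_4h was at 996 CPM (960 to 1033) and TO_2d_0h at 992 CPM (951 to 1034). Np4 and Defa5 did not overlap in this direction, RatNP-3b and Defa11 did. Of 10498 genes 18.5% did not overlap in this stage, and 11.7% were higher at 4 h. In B-cell-like cells the sum ranged from 560 to 803 CPM at 4 h and from 492 to 919 CPM at 0 h or 24 h.

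The other alpha-defensin genes were scarce. Defa7 had 9103 UMIs and Defa10 5372 UMIs, both listed by RefSeq as miscellaneous RNA, and 65.7% and 64.7% of these lay in the dividing secondary granule stage. They were at 163 and 94.4 CPM there, and at 37.7 and 23.1 CPM in the primary granule stage. Defa6 had 39 UMIs, Defa24 18, Defal1 17, Defa8 8 and Defa9 1. The pseudogenes Defa5-ps1, Defa5-ps2 and Defal1-ps1 had 0. Reads of the members that were assigned to a near-identical copy cannot be told apart from transcripts of these genes.

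Among 12 primary granule genes, 8 were highest in the primary granule stage, as were 43.4% of the 10064 genes measured in the lineage. Elane was at 8071 CPM there and at 160 CPM in the dividing stage, and Ctsg (cathepsin G) at 7723 and 95.2 CPM. Mpo, myeloperoxidase, was at 3214 and 340 CPM. The members thus rose by 2.64 to 4.00-fold between the stages in which these granule genes fell. Ms4a3, a membrane protein of granulocyte-monocyte progenitors, was the member of this list closest to the defensins, with 737 CPM in the primary granule stage, 556 CPM in the dividing stage and 14.3 CPM in the part not dividing. Srgn, the granule proteoglycan serglycin, was at 14569, 7654 and 488 CPM in the same stages. Serpinb1a, an inhibitor of neutrophil serine proteases, was highest in the dividing stage (3588 CPM), and Ctsc, Bpi and Lyz2 in the mature stage. The stages were set by 6 of these 12 genes, so their order is not independent of the stages.

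Of 12 secondary granule genes, 8 were highest in the part not dividing and none in the dividing stage. Of the 10064 genes, 956 were highest in the part not dividing and 1020 (10.1%) in the dividing stage. Camp and Ngp are in this list and set the secondary granule stage, so its counts are not independent of the stages. Camp was already at 20581 CPM in the dividing stage and 22389 CPM in the part not dividing, whereas Ngp went from 2176 to 24620 CPM and Lcn2 (lipocalin 2) from 1372 to 5765 CPM. The dividing stage thus joined abundant defensin and Camp transcripts with low Ngp. Ltf, lactoferrin, had 818 UMIs in all cells. Of 8 late granule and surface genes, 6 were highest in the mature stage (16.3% of the 10064 genes), among them the chemokine receptor gene Cxcr2 (182 CPM) and Mmp9 (607 CPM).

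Among 9 transcription factors of the lineage, Gfi1 was highest in the dividing stage, at 79.4 CPM against 50.8 CPM in the primary granule stage and 35.7 CPM in the part not dividing. Cebpe, which drives secondary granule genes, was at 91.9 CPM in the primary granule stage, 345 CPM in the dividing stage and 360 CPM in the part not dividing, and so stayed high where the members fell. Cebpa had 39.0, 32.2 and 59.8 CPM in these stages. Runx1 had 403, 413 and 271 CPM. Myb and Irf8 were highest in the primary granule stage. The cell cycle genes were used to split the secondary granule stage. Of the 6, 4 were highest in the dividing stage, with Mki67 at 401 CPM against 246 CPM in the primary granule stage.

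Over 30 clusters of all cells, the gene outside the family whose level was most like the sum of the 4 members was Ms4a3, with a Pearson correlation of log2(CPM + 1) of 0.96 among 16371 genes compared. Sgpp2, a sphingosine phosphate phosphatase, followed at 0.90, Chrdl2 at 0.90, LOC120094379 at 0.89, Krt79 at 0.87, Far2 at 0.86, LOC689039 at 0.85, Glt1d1 at 0.84, Lin28a at 0.83 and Aff2 at 0.81. Their levels were far below those of RatNP-3b, Np4 and Defa5. In the primary granule stage Ms4a3, at 737 CPM, was close to Defa11 at 756 CPM. Sgpp2 was at 102 CPM in the dividing stage, 49.8 CPM in the primary granule stage and 18.6 CPM in the part not dividing. The clusters share libraries, and the part of free RNA in their levels was not tested. With a Spearman correlation 1 of these 10 genes remained among the first 10.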

How the data were processed

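Osteotomy tissue from rats was measured by 10x Genomics 3' single-cell RNA-seq in 8 libraries. Per the labels, the deposited UMI counts were made by the authors with Cell Ranger 9.0.0. The study clustered its cells with Seurat in R; those clusters were not used here. The submitters' processing notes also name R 4.0.3 and the builds GRCh38 and mRatBN7.2, without a role. Levels were computed from the counts as deposited, as CPM over the UMIs of a class. For clustering alone, each cell was scaled to 10000 UMIs.

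Barcodes needed 200 genes or more and a mitochondrial share (15 genes) of 20% or less. Doublets over a Scrublet score of 0.25 were removed. Clusters were made with scanpy 1.11.5 from 2000 variable genes, 30 components, 15 neighbours and Leiden resolution 1, without alpha-defensin genes. Granulocyte sub-clusters were put into stages by summed CPM: primary granule markers over 10000, Camp and Ngp over 10000, cell cycle genes over 1000 (dividing) and chemokines over 50000. A mean doublet score over 0.12 made a sub-cluster mixed.

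Levels carry exact Poisson, Clopper-Pearson or conditional intervals of 95%, for counting error only. Ratios over all genes used genes with at least 50 UMIs and a prior of 0.5. There is 1 library per condition, and no test was made. The scripts were tested on simulated data. The genes named are the 4 members, the other alpha-defensin genes, 5 lists of granule, transcription factor and cell cycle genes, and the 10 genes most like the members.

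Members and lists were chosen with earlier results of these data known. Sub-clustering, stage thresholds, the naming rule, order bins, the 4 h comparison, the comparison in cells not dividing, the levels of other cell types without 1 library and the motifs were added after values were seen.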

Additional observations from a re-analysis of the deposited data

Results flagged for a closer look

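The ratio of TOE to TO pointed in opposite directions in different pairs of libraries, beyond the counting intervals of each, for the results below. Each pair is 1 library against 1, so the difference between pairs was not tested. No share over all genes was computed for this rule, and with large counts it passes small differences. For the sum of the 4, the day 2 direction turned under some alternatives given below, in the primary granule stage and in cells not dividing. Values are differences of log2 ratios, with both ratios after them. In the primary granule stage, RatNP-3b differed by 1.09 (0.84 in the early day 4 pair and -0.25 in the day 2 pair). Np4 differed by 0.56 (0.23 in the early day 4 pair and -0.33 in the day 2 pair). Defa11 differed by 1.94 (1.44 in the early day 4 pair and -0.50 in the late day 4 pair). Defa5 differed by 0.97 (0.61 in the early day 4 pair and -0.37 in the late day 4 pair). In the dividing secondary granule stage, RatNP-3b differed by 0.50 (0.13 in the early day 4 pair and -0.37 in the late day 4 pair). Np4 differed by 0.088 (0.013 in the early day 4 pair and -0.074 in the day 2 pair). Defa11 differed by 0.61 (0.36 in the day 2 pair and -0.25 in the late day 4 pair). Defa5 differed by 0.42 (0.084 in the early day 4 pair and -0.34 in the late day 4 pair). In secondary granule cells not dividing, RatNP-3b differed by 1.89 (1.74 in the early day 4 pair and -0.15 in the day 2 pair). Defa5 differed by 1.73 (1.61 in the early day 4 pair and -0.12 in the day 2 pair). Over all cells, RatNP-3b differed by 1.17 (0.85 in the late day 4 pair and -0.32 in the day 2 pair). Np4 differed by 1.05 (0.92 in the late day 4 pair and -0.13 in the day 2 pair). Defa11 differed by 0.98 (0.92 in the late day 4 pair and -0.056 in the early day 4 pair). Defa5 differed by 0.88 (0.75 in the late day 4 pair and -0.13 in the day 2 pair).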

How the results depend on the processing

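All values below are for the sum of the 4 defensins unless a member is named, and log2 ratios are TOE over TO. The 4 members stayed highest in the dividing secondary granule stage under every alternative that kept this stage. Of 849 alternative values, 190 stayed within the counting interval, 652 moved beyond it and 7 reversed; these intervals are narrow, so a moved value is often a small change. Reversed here means a change of direction from a ratio of 2-fold or more; of the ratios under 2-fold, 84 of 544 alternative values also changed direction. The reversed values, 6 of them in the late day 4 pair in cells not dividing (the sum and Np4) and 1 for Defa11 in the early day 4 pair in the primary granule stage, came with another choice of cells, and the cause was not tested. Under a stricter cell filter (500 genes, 10% mitochondrial), the level was 6.58% (primary), 21.3% (dividing), 1.49% (not dividing), 0.0868% (mature), 61.8% of the defensin UMIs lay in the dividing stage, and the log2 ratios were primary -0.088 in the day 2 pair, 0.63 in the early day 4 pair, -0.27 in the late day 4 pair, dividing -0.20 in the day 2 pair, -0.33 in the late day 4 pair, not dividing -0.75 in the day 2 pair, 0.80 in the early day 4 pair, -0.22 in the late day 4 pair, all cells -0.030 in the early day 4 pair, 0.87 in the late day 4 pair. Without a filter on cells, the level was 5.91% (primary), 21.4% (dividing), 1.52% (not dividing), 0.0946% (mature), 62.6% of the defensin UMIs lay in the dividing stage, and the log2 ratios were primary -0.025 in the day 2 pair, 0.59 in the early day 4 pair, -0.16 in the late day 4 pair, dividing -0.18 in the day 2 pair, 0.12 in the early day 4 pair, not dividing -0.26 in the day 2 pair, 0.76 in the early day 4 pair, 0.26 in the late day 4 pair. With doublets kept, the level was 6.14% (primary), 20.4% (dividing), 3.28% (not dividing), 0.0951% (mature), 55.6% of the defensin UMIs lay in the dividing stage, and the log2 ratios were primary -0.11 in the day 2 pair, 0.57 in the early day 4 pair, -0.35 in the late day 4 pair, dividing -0.18 in the day 2 pair, 0.093 in the early day 4 pair, -0.78 in the late day 4 pair, not dividing -0.66 in the day 2 pair, 0.43 in the early day 4 pair, 1.02 in the late day 4 pair, all cells -0.18 in the day 2 pair, -0.030 in the early day 4 pair. At clustering resolution 0.5, the level was 4.97% (primary), 21.3% (dividing), 0.742% (not dividing), 0.1% (mature), 66.6% of the defensin UMIs lay in the dividing stage, and the log2 ratios were primary -0.087 in the day 2 pair, 0.68 in the early day 4 pair, -0.037 in the late day 4 pair, dividing -0.19 in the day 2 pair, 0.076 in the early day 4 pair, -0.28 in the late day 4 pair, not dividing -0.29 in the day 2 pair, 1.56 in the early day 4 pair, 0.60 in the late day 4 pair. At clustering resolution 2, the level was 4.43% (primary), 21.4% (dividing), 1.8% (not dividing), 0.0919% (mature), 62% of the defensin UMIs lay in the dividing stage, the log2 ratios were primary 0.038 in the day 2 pair, 0.49 in the early day 4 pair, -0.30 in the late day 4 pair, dividing -0.16 in the day 2 pair, 0.12 in the early day 4 pair, -0.28 in the late day 4 pair, not dividing -0.35 in the day 2 pair, 0.84 in the early day 4 pair, -1.03 in the late day 4 pair, and the reversed ratio of Np4 (not dividing, 4d 24h) was -0.85. With alpha-defensin genes in the clustering, the level was 6.09% (primary), 21.5% (dividing), 0.483% (not dividing), 0.0985% (mature), 65.6% of the defensin UMIs lay in the dividing stage, and the log2 ratios were primary -0.25 in the day 2 pair, 0.46 in the early day 4 pair, -0.21 in the late day 4 pair, dividing -0.18 in the day 2 pair, 0.069 in the early day 4 pair, -0.30 in the late day 4 pair, not dividing 0.073 in the day 2 pair, 1.17 in the early day 4 pair, 1.02 in the late day 4 pair. With another seed, the level was 4.07% (primary), 21.6% (dividing), 1.29% (not dividing), 0.101% (mature), 68.7% of the defensin UMIs lay in the dividing stage, and the log2 ratios were primary 0.49 in the day 2 pair, 0.74 in the early day 4 pair, -0.21 in the late day 4 pair, dividing -0.12 in the day 2 pair, 0.12 in the early day 4 pair, -0.28 in the late day 4 pair, not dividing -0.36 in the day 2 pair, 0.53 in the early day 4 pair, -0.037 in the late day 4 pair. With alpha-defensin UMIs left out of the total, the level was 6.4% (primary), 26.4% (dividing), 0.726% (not dividing), and the log2 ratios were primary -0.24 in the day 2 pair, 0.59 in the early day 4 pair, dividing -0.21 in the day 2 pair, 0.10 in the early day 4 pair, -0.38 in the late day 4 pair, all cells 0.86 in the late day 4 pair. As the mean of per-cell values, the level was 7.91% (primary), 18.3% (dividing), 0.548% (not dividing), 0.0922% (mature), 57.9% of the defensin UMIs lay in the dividing stage, and the log2 ratios were primary -0.16 in the day 2 pair, 0.16 in the early day 4 pair, -0.40 in the late day 4 pair, dividing -0.087 in the day 2 pair, 0.0081 in the early day 4 pair, -0.13 in the late day 4 pair, not dividing -0.22 in the day 2 pair, 1.34 in the early day 4 pair, 0.54 in the late day 4 pair. With sub-clusters at resolution 0.5, the level was 5.24% (primary), 21.3% (dividing), 2.06% (not dividing), 62.4% of the defensin UMIs lay in the dividing stage, and the log2 ratios were primary -0.083 in the day 2 pair, 0.86 in the early day 4 pair, -0.19 in the late day 4 pair, dividing 0.068 in the early day 4 pair, -0.23 in the late day 4 pair, not dividing 0.24 in the day 2 pair, 1.34 in the early day 4 pair, 0.18 in the late day 4 pair. With sub-clusters at resolution 2, the level was 5.8% (primary), 19.7% (dividing), 4.79% (not dividing), 0.0909% (mature), 48.6% of the defensin UMIs lay in the dividing stage, the log2 ratios were primary -0.25 in the day 2 pair, -0.28 in the late day 4 pair, dividing -0.18 in the day 2 pair, -0.079 in the early day 4 pair, -0.28 in the late day 4 pair, not dividing 0.26 in the day 2 pair, 0.73 in the early day 4 pair, -1.57 in the late day 4 pair, and the reversed ratio of Np4 (not dividing, 4d 24h) was -1.24. With the mixed cells put into a stage, the level was 2.19% (not dividing), and the log2 ratios were not dividing 0.22 in the day 2 pair, 0.39 in the early day 4 pair, 0.21 in the late day 4 pair. With clusters of all cells, the level was 6.44% (primary), 0.126% (mature), and the log2 ratios were primary -0.31 in the day 2 pair, 0.21 in the early day 4 pair, 0.42 in the late day 4 pair. With cells chosen one by one by primary granule genes, from all kept cells of any stage, the log2 ratios set against those of the primary granule stage were -0.65 in the day 2 pair, -0.25 in the early day 4 pair, 1.10 in the late day 4 pair, and the reversed ratio of Defa11 (primary, 4d 4h) was -0.20. Without 1 library at a time, the level ranged from 5.76% to 6.23% (primary), 20.3% to 21.4% (dividing), 0.657% to 0.806% (not dividing) and 0.0877% to 0.0958% (mature), and 62.7% to 66.3% of the defensin UMIs lay in the dividing stage. Of the 10 genes most like the defensins, 1 was shared with a Spearman correlation and 8 with a pseudocount of 10. No paired test was run: the 3 pairs of TOE and TO differ in day or hour and were given side by side. Depth limits the low levels most: Defa11 in mature and B-cell-like cells rests on 405 and 4567 UMIs, and primary granule ratios on 108 to 257 cells a library.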
